A study of Mus musculus with 36 samples.

Results

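Liver transcripts of control mice were compared between the middle of the dark phase and the middle of the light phase of a 12 h light and 12 h dark cycle. Zeitgeber time (ZT) counts hours from lights on, so ZT6 lies in the light, when mice mostly rest, and ZT18 in the dark, when they mostly feed and move. The comparison used the raw gene counts of 6 of the 36 libraries of the series, 3 at ZT18 against 3 at ZT6. It covered the 17994 of 54532 listed genes that reached 100 counts summed over all 36 libraries. The spread between mice was estimated from all 18 control libraries at 6 times. All 6 livers came from male mice of 2 to 3 months of age that were bred on the C57Bl/6NCrl background, received normal chow and water ad libitum and were killed by cervical dislocation. The libraries carry the label WT, but the study's methods give these controls as heterozygous (THRB+/-) for the allele B6.129S1-Thrbtm1Df/J, which impairs DNA binding by thyroid hormone receptor beta in the whole body, so no library of homozygous wild-type liver entered the comparison. The 3 libraries of a time point are called a, b and c after their labels, and each came from its own mouse. Knockout mice (THRB-/-) of the same age, sex, diet and schedule had 3 libraries at each of the same times. Their values are set beside those of the controls.

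The liver clock is a feedback loop in which BMAL1 (encoded by *Arntl*) and CLOCK drive the genes of their own repressors, the PER and CRY proteins, while REV-ERB proteins (encoded by *Nr1d1* and *Nr1d2*) and the ROR receptors act in opposite directions on *Arntl* and on other genes with ROR elements. Feeding adds a daily rhythm of insulin, nutrients and body temperature, and the fed liver stores glycogen and makes fat, whereas the fasting liver oxidises fat and makes glucose and ketone bodies. Secretory cells answer a load of unfolded proteins in the endoplasmic reticulum with chaperones of that compartment, and heat shock factor does the same for the cytosol.

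The 6 libraries held between 29063273 and 37962314 counts in genes. Log2 values of libraries within a time point correlated at 0.983 to 0.989 and those of different time points at 0.966 to 0.975 across genes, which are not independent replicates. The 10 most abundant genes took 16.3 to 18.2% of the counts. Hepatocyte markers were abundant in every library, with a summed level of 64842 to 78410 CPM, that is, counts scaled to the effective size of each library. *Thrb* itself, the gene of the disrupted receptor, lies at chr14:17660261-18038090, plus strand (GRCm38), and had 24.3, 25.2 and 38.5 CPM at ZT6 and 26.2, 26.5 and 28.4 CPM at ZT18 (log2 fold change -0.12 ± 0.15, adjusted p = 0.649). The 2 groups overlapped, and a transcript count over the whole gene does not read whether the encoded protein can bind DNA.

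At ZT18, 1218 genes were higher than at ZT6 (6.77% of those tested) and 1373 were lower (7.63%), by edgeR's quasi-likelihood test at a Benjamini-Hochberg adjusted p under 0.05. This threshold is what "called", "rose" and "fell" refer to below. Fold changes are ZT18 over ZT6 on the log2 scale with a standard error. That error was derived as the absolute log2 fold change over the square root of the test's F statistic. CPM values are listed for a, b and c in that order. The median log2 fold change was 0.02 over all tested genes, 0.75 over the genes that rose and -0.54 over those that fell. The shares of 6.77% and 7.63% are the background for each count of list members below. At least 2-fold differences were called for 401 higher genes (2.23%) and 228 lower genes (1.27%), and at least 4-fold differences for 109 and 54. The CPM ranges of the 2 groups did not overlap for 2605 genes that were higher (14.5%) and 2707 that were lower (15%) at ZT18. Leaving out any single library lowered the counts of 1218 and 1373, most of all for ZT18 a, without which 811 genes rose and 869 fell. Without ZT6 b 816 rose and 1052 fell. In bulk liver, fewer cells of a type and less RNA per cell cannot be told apart. The p-values rest on the spread between mice within each of the 6 control times, estimated from 18 control libraries with 3 mice per time. A fit of the 6 compared libraries alone called 659 genes higher and 766 lower.

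Most genes with a 2-fold difference had their daily extremes at or next to these times. Of the 401 that rose, 215 had their highest control mean at ZT18, 96 at ZT14 and 68 at ZT22, and 296 had their lowest at ZT6. Of the 228 that fell, 184 had their highest mean at ZT6 and 117 their lowest at ZT18. Since the 2 times chose these genes, the means at ZT6 and ZT18 are a description.

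Among the clock genes, *Nr1d1* and *Dbp* fell most. *Nr1d1*, which encodes the repressor REV-ERBα, had 187, 172 and 182 CPM at ZT6 and 4.49, 3.39 and 3.06 CPM at ZT18 (log2 fold change -5.63 ± 0.36, adjusted p = 1.7e-07). *Nr1d2*, which encodes the related REV-ERBβ, had 79.6, 90.4 and 99.6 CPM at ZT6 and 24.8, 19.4 and 10.4 CPM at ZT18 (log2 fold change -2.31 ± 0.25, adjusted p = 1.67e-05). For *Dbp*, a transcription factor gene driven directly by CLOCK and BMAL1 that acts on D-boxes, the values were 139, 119 and 170.2 CPM at ZT6 and 10.7, 5.31 and 4.64 CPM at ZT18 (log2 fold change -4.39 ± 0.47, adjusted p = 1.65e-05). In all 3 genes every ZT6 library lay far above every ZT18 library. *Bhlhe41*, which encodes the repressor DEC2, had 14.04, 6.79 and 10.5 CPM at ZT6 and 2.46, 1.95 and 1.68 CPM at ZT18 (log2 fold change -2.36 ± 0.33, adjusted p = 0.000167), and its groups did not overlap either. *Tef*, the gene of another D-box factor, fell less, from 188 ± 48.7 to 113 ± 23.7 CPM (mean ± SD, n = 3) (log2 fold change -0.73 ± 0.21, adjusted p = 0.0247), and its adjusted p was 0.0534 without ZT18 b, 0.106 without ZT18 c and 0.14 without ZT6 c.

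Other clock genes rose, among them the partner of CLOCK and 2 repressors. *Arntl* had 3.12, 5.21 and 2.66 CPM at ZT6 and 15.1, 15.9 and 19.9 CPM at ZT18 (log2 fold change 2.21 ± 0.24, adjusted p = 1.62e-05). *Cry1*, a repressor that accumulates late in the cycle, had 5.07, 7.11 and 7.796 CPM at ZT6 and 35.3, 33.6 and 44.5 CPM at ZT18 (log2 fold change 2.50 ± 0.23, adjusted p = 2.67e-06). In both genes the lowest ZT18 library was above the highest ZT6 library. *Per2*, a partner of the CRY repressors, had 14.4, 12.9 and 26.8 CPM at ZT6 and 109, 76.01 and 59.7 CPM at ZT18 (log2 fold change 2.17 ± 0.24, adjusted p = 1.67e-05). *Nfil3*, whose product competes with DBP and TEF at D-boxes, had 15.3, 14.8 and 16.4 CPM at ZT6 and 34.4, 32.7 and 39.6 CPM at ZT18 (log2 fold change 1.20 ± 0.21, adjusted p = 0.000887). *Nampt*, the rate-limiting enzyme of NAD salvage, had 59.04, 55.2 and 66.95 CPM at ZT6 and 115, 114 and 95.7 CPM at ZT18 (log2 fold change 0.84 ± 0.15, adjusted p = 0.00125). The highest *Per2* value was in ZT18 a, whereas *Nfil3* was highest in ZT18 c, and neither gene had overlapping groups.

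Of 16 core clock genes tested, 4 rose, 3 fell and 9 were not called, and of 11 clock output genes 2 rose (4 without ZT6 c, with *Wee1* and *Usp2*), 3 fell and 6 were not called. Several of those not called have their extremes at other hours. *Per1* had control means of 29.9 CPM at ZT6 and 28.4 CPM at ZT18 but 82.2 CPM at ZT10 and 4.92 CPM at ZT2. *Ciart*, a clock repressor gene, had 38.8 CPM at ZT10 against 6.98 and 4.96 CPM at the 2 compared times. *Npas2*, a paralogue of *Clock*, had 10.4 CPM at ZT2 and 9.78 CPM at ZT22, and its values of 0.479, 1.05 and 0.211 CPM at ZT6 and 0.105, 0.0271 and 2.504 CPM at ZT18 overlapped, with ZT18 c far above the other libraries. Without ZT18 c *Npas2* was called lower (log2 fold change -3.16, adjusted p = 0.0283). *Clock* differed by 0.21 ± 0.14 (adjusted p = 0.347) and *Cry2* by -0.24 ± 0.15 (adjusted p = 0.317). In *Per1*, *Per3* and *Ciart* the highest of the ZT6 values was in library c, for *Per3* 15.3, 16.8 and 33.4 CPM at ZT6 and 27.9, 15.2 and 13.5 CPM at ZT18 (log2 fold change -0.22 ± 0.33, adjusted p = 0.719).

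**Figure D1:**
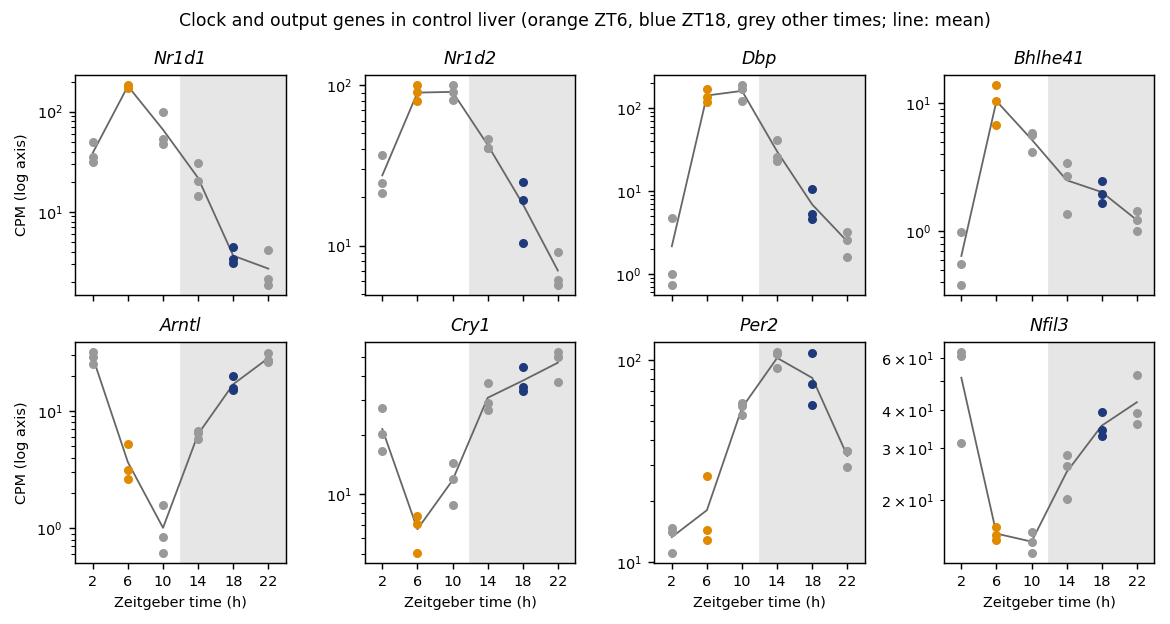
CPM (log axis) of 8 genes of the clock and its output in the control libraries against zeitgeber time in hours, with a point per library (orange ZT6, blue ZT18, grey other times), a line through the means of 3 and the dark phase shaded. *Nr1d1*, *Nr1d2*, *Dbp* and *Bhlhe41* are lower in every ZT18 library than in every ZT6 library, and the other 4 genes are higher.

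The E-box CACGTG, the letters that CLOCK and BMAL1 bind, was looked for on both strands in the 250 bases before the start site of RefSeq genes (GRCm38.p6), because the clock genes moved in both directions. It was present in 6.02% of all 32851 promoters and, counted by gene, in 9.33% of tested genes with a promoter in the table. Of such genes, 26 of 159 (16.4%) that fell at least 2-fold and 20 of 254 (7.87%) that rose at least 2-fold held it. Among the clock lists it was found for *Per1*, *Cry1*, *Ciart*, *Tef* and *Bhlhe41*, that is, in 3 of 12 core clock genes and 2 of 9 output genes with a promoter. *Nfil3* held the ROR element TAGGTCA (2.23% of all promoters, 2.25% of tested genes with a promoter), read on the opposite strand just before its start site. *Per3* held 2 copies of the D-box TTATGTAA (0.819% of all promoters, 0.701% of tested genes with a promoter). The stretches of 2 genes with an E-box that moved in opposite directions, *Cry1* (chr10:85185079-85185144, minus strand) and *Bhlhe41* (chr6:145865538-145865603, minus strand), are shown with those of *Nfil3* (chr13:52981040-52981081, minus strand) and *Per3* (chr4:151044786-151044900, minus strand), 5′ to 3′ on the gene's strand and with the motif in capitals. A match is a description of letters and not a bound site.
Cry1: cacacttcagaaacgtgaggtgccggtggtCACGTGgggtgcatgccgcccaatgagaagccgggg
Bhlhe41: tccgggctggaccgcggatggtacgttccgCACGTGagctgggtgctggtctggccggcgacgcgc
Nfil3: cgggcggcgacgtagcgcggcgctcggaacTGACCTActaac
Per3: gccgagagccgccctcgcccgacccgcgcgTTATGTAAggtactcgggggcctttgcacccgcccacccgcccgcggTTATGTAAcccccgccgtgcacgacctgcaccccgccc

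Among the gene lists, those of chaperones held the largest share of rises. Of 24 tested genes of the unfolded protein response of the endoplasmic reticulum 15 rose and none fell, with a list median of 0.75, and of 19 cytosolic and mitochondrial heat shock genes 15 rose and none fell, with a median of 1.05. Over all tested genes 6.77% rose and the median was 0.02. The unfolded protein response list holds mostly chaperone, folding and degradation genes and does not cover the whole response. Its member *Ddit3* was not tested. Of the nutrient stress genes given below, which are not in this list, *Trib3* and *Sesn2* fell and *Ddit4* rose. The number called in the unfolded protein response list was 14 without library ZT18 a, and in the heat shock list it was 13.

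*Creld2*, whose product resides in the endoplasmic reticulum and is induced by unfolded proteins, had 22.9, 15.1 and 18.3 CPM at ZT6 and 238, 72.7 and 65.2 CPM at ZT18 (log2 fold change 2.73 ± 0.48, adjusted p = 0.00096). *Sdf2l1*, which encodes a component of the chaperone complex of that compartment, had 23.8, 17.9 and 17.5 CPM at ZT6 and 152, 62.8 and 59.3 CPM at ZT18 (log2 fold change 2.21 ± 0.31, adjusted p = 0.000159). *Hspa5*, the gene of its main chaperone BiP, had 521, 441 and 551 CPM at ZT6 and 2185, 963 and 1028 CPM at ZT18 (log2 fold change 1.46 ± 0.26, adjusted p = 0.00119). Library ZT18 a was more than the sum of the other ZT18 libraries in *Creld2*, *Sdf2l1* and *Hspa5*, and the remaining ZT18 values still lay above all those at ZT6. *Manf*, a secreted factor that binds BiP, had 69.3, 49.1 and 57.05 CPM at ZT6 and 306, 131 and 168 CPM at ZT18 (log2 fold change 1.78 ± 0.31, adjusted p = 0.000812). *Hyou1*, which encodes a nucleotide exchange factor of BiP, had 119.5, 91.5 and 131 CPM at ZT6 and 512, 289 and 257 CPM at ZT18 (log2 fold change 1.63 ± 0.26, adjusted p = 0.000482). *Syvn1*, the ubiquitin ligase of protein degradation at this membrane, had 91.8, 70.5 and 84.1 CPM at ZT6 and 449.5, 144 and 166 CPM at ZT18 (log2 fold change 1.62 ± 0.32, adjusted p = 0.00223). The other 9 called members were the disulfide isomerase genes *Pdia3*, *Pdia4* and *Pdia6*, the chaperone genes *Hsp90b1*, *Calr*, *Dnajb11* and *Dnajc3*, and the degradation genes *Edem1* and *Sel1l*, with log2 fold changes from 0.51 (*Sel1l*) to 1.13 (*Pdia4*). Without ZT18 a the log2 fold change of *Creld2* was 1.88, that of *Syvn1* 0.92 and that of *Hsp90b1* 0.52, all still called, and the adjusted p of *Sel1l* was 0.147 without ZT18 a, 0.0812 without ZT6 a and 0.0772 without ZT6 b.

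Of the list's 3 tested transcription factor genes, *Xbp1*, *Atf6* and *Atf4*, none was called. *Xbp1* had 293, 245 and 239.8 CPM at ZT6 and 277, 341 and 261 CPM at ZT18 (log2 fold change 0.18 ± 0.18, adjusted p = 0.584). *Atf6*, whose product also senses unfolded proteins, differed by 0.02 ± 0.16 (adjusted p = 0.96) and *Atf4* by 0.34 ± 0.11 (adjusted p = 0.0576). *Atf4* was called without ZT18 b (0.44, adjusted p = 0.0219) or ZT6 a (0.44, adjusted p = 0.028). *Herpud1*, which encodes a component of protein degradation at this membrane, differed by 0.00 ± 0.26 (adjusted p = 0.999). Gene counts do not separate the spliced form of *Xbp1* from the unspliced one.

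Genes of the cytosolic chaperones rose as well. *Hsp90aa1*, the inducible HSP90 gene, had 94.3, 113 and 102 CPM at ZT6 and 493, 388 and 347 CPM at ZT18 (log2 fold change 1.99 ± 0.19, adjusted p = 4.74e-06). *Hsph1*, which encodes the exchange factor HSP105, had 26.8, 27.8 and 27.3 CPM at ZT6 and 145, 97.1 and 88.8 CPM at ZT18 (log2 fold change 2.01 ± 0.25, adjusted p = 6.01e-05). *Hspb1*, which encodes the small heat shock protein HSP25, had 25.6, 32.00 and 17.1 CPM at ZT6 and 96.1, 89.6 and 65.1 CPM at ZT18 (log2 fold change 1.75 ± 0.20, adjusted p = 2.52e-05). In these 3 genes each ZT18 library was above each ZT6 library by more than the spread within either group. *Hspa8*, the constitutive HSP70 gene, had 628, 728 and 696 CPM at ZT6 and 2576, 1090.1 and 1408 CPM at ZT18 (log2 fold change 1.30 ± 0.27, adjusted p = 0.00373), or 343 TPM at ZT6 and 825 TPM at ZT18 when scaled for gene length. Parts of *Hspa8* and *Hsp90aa1* have near-identical copies elsewhere in the transcript set, so their reads may be split. The members not called were *Hspa1a* (1.05, adjusted p = 0.403), *Hspd1* (0.21, adjusted p = 0.0844), *Hsf1* (0.13, adjusted p = 0.465) and *Hspa4* (0.06, adjusted p = 0.746). *Hspa1b* was called (log2 fold change 1.63 ± 0.45, adjusted p = 0.0218), but it is 99.2% identical to *Hspa1a* over the aligned transcript, and its adjusted p was 0.177 without ZT18 a, 0.0758 without ZT6 b and 0.0648 without ZT6 c. Without ZT18 a its log2 fold change was 0.91.

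In all 15 called genes of each chaperone list library ZT18 a had the highest value. In the knockouts 14 genes of each of these lists were called higher at ZT18 and none lower. The knockout medians were 0.69 for the unfolded protein response list and 0.93 for the heat shock list. There, *Hspa5* had 457, 477 and 452 CPM at ZT6 and 1878, 927 and 921 CPM at ZT18 and *Hsp90aa1* had 97.2, 108 and 99.4 CPM at ZT6 and 435, 441 and 355 CPM at ZT18. The knockout ZT18 libraries were above the knockout ZT6 libraries for both genes. At ZT18 knockout library a was again the highest for *Hspa5*, while b was for *Hsp90aa1*. Whether mice of the same letter in both genotypes shared a day or handling is not given and was not tested.

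**Figure D2:**
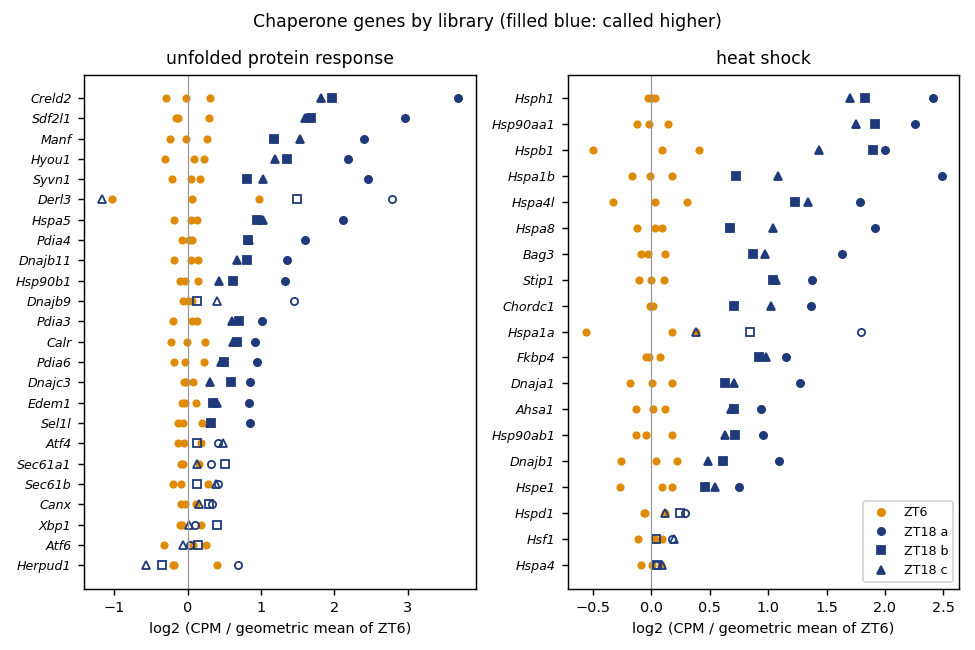
Log2 of the CPM of each control library over the geometric mean of the ZT6 libraries (x axis), for the 24 tested unfolded protein response genes and the 19 heat shock genes (rows), with orange points for ZT6, blue symbols for ZT18 a, b and c and open symbols for genes not called. In every called gene the circle of ZT18 a lies farthest to the right, with 238 CPM for *Creld2* against 72.7 and 65.2 CPM in the other ZT18 libraries.

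The endoplasmic reticulum stress response element, CCAAT and CCACG with 9 bases of any kind between them, was searched for on both strands in the same promoters because the list moved one way. It was present in 37 of 32851 promoters (0.113%). Counted by gene, it was in 20 of 11979 tested genes with a promoter in the table (0.167%). Of the 20 list members with a promoter, 9 held it. Of these 9 genes, *Hspa5*, *Hsp90b1*, *Pdia6*, *Calr*, *Dnajc3*, *Creld2* and *Syvn1* rose, while *Canx* (0.25, adjusted p = 0.0721) and *Derl3* (1.54, adjusted p = 0.179) were not called. *Derl3* was called without ZT18 c (2.05, adjusted p = 0.0456). The stretches of *Hspa5* (chr2:34771995-34772073, plus strand), *Creld2* (chr15:88819490-88819568, plus strand), *Syvn1* (chr19:6046502-6046575, plus strand) and *Canx* (chr11:50325770-50325848, minus strand) show the element in capitals with 30 bases on each side, or up to the base before the start site in *Syvn1*. In *Creld2* it lies on the opposite strand.
Hspa5: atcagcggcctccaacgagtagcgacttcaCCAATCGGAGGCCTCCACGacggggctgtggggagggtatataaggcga
Creld2: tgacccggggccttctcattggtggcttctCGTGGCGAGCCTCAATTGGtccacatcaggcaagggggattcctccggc
Syvn1: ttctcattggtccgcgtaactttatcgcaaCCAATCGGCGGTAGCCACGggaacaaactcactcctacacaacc
Canx: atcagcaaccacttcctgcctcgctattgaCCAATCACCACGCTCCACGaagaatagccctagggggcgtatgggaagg

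The heat shock element, the units GAA, TTC and GAA with 2 bases of any kind between neighbours, was read on both strands. It was in 0.466% of all promoters and in 0.451% of tested genes with a promoter. Of the 15 heat shock genes with a promoter, *Hspd1* and *Hspe1* held it, and these share a stretch between their start sites. It is printed for *Hspe1* (chr1:55088029-55088106, plus strand), which rose (log2 fold change 0.57 ± 0.13, adjusted p = 0.00664), whereas *Hspd1* was not called. Capitals mark 2 overlapping matches. Its absence from the other windows says only that these letters are not in them.
Hspe1: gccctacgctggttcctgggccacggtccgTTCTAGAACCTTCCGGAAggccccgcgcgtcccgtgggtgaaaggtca

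Transporters that move cholesterol and bile acids held the largest share of falls among the lists, with 9 of 12 lower, none higher and a list median of -0.88, against 7.63% of all genes lower. *Abcg5* (chr17:84658234-84683011, minus strand) and *Abcg8* (chr17:84676302-84700333, plus strand) encode the 2 parts of the pump that secretes cholesterol into bile. *Abcg8* had 140.4, 184 and 164 CPM at ZT6 and 35.99, 39.1 and 29.4 CPM at ZT18 (log2 fold change -2.22 ± 0.16, adjusted p = 3.13e-07). *Abcg5* had 113, 138 and 116 CPM at ZT6 and 52.8, 36.5 and 33.5 CPM at ZT18 (log2 fold change -1.58 ± 0.15, adjusted p = 4.92e-06). The genes lie head to head and share 82 exon bases on opposite strands, about 2.19% of the exon bases of *Abcg8* and 3.02% of those of *Abcg5*, and the libraries were not strand-specific. *Abcb11*, which encodes the bile salt export pump, had 646, 793 and 732 CPM at ZT6 and 372, 362 and 455 CPM at ZT18 (log2 fold change -0.87 ± 0.14, adjusted p = 0.000477). *Slco1b2*, which encodes an uptake carrier of organic anions, had 852, 941 and 1231 CPM at ZT6 and 554, 598 and 477 CPM at ZT18 (log2 fold change -0.89 ± 0.15, adjusted p = 0.000742). None of these 4 genes had overlapping groups. *Slco1a4* (-1.01, adjusted p = 0.00641), *Abcb4* (-0.88, adjusted p = 9.49e-05), *Abcc2* (-0.77, adjusted p = 0.00251) and *Abcc3* (-0.55, adjusted p = 0.0203) also fell, with an adjusted p for *Abcc3* of 0.0552 without ZT18 a, 0.079 without ZT18 c, 0.106 without ZT6 b and 0.0543 without ZT6 c. *Slc10a1*, which encodes the main bile acid uptake carrier, was called by a small margin (log2 fold change -0.39 ± 0.12, adjusted p = 0.0423), and its call was lost without each of ZT18 a, ZT18 b, ZT18 c, ZT6 b and ZT6 c (adjusted p from 0.0673 to 0.137).

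Bile acid synthesis had 1 rise and 3 falls among 14 genes tested (1 fall without ZT18 b). *Cyp7a1*, the rate-limiting enzyme of bile acid synthesis, had 23.8, 21.4 and 67.4 CPM at ZT6 and 140.2, 182 and 99.4 CPM at ZT18 (log2 fold change 1.90 ± 0.37, adjusted p = 0.00237). *Nr0b2*, which encodes SHP, a repressor of *Cyp7a1*, moved the other way with 60.3, 75.1 and 63.00 CPM at ZT6 and 23.7, 19.03 and 28.9 CPM at ZT18 (log2 fold change -1.47 ± 0.29, adjusted p = 0.00235). Both genes were separated between the groups, although ZT6 c was well above the other ZT6 libraries for *Cyp7a1*, and without it the log2 fold change was 2.63. *Cyp8b1*, which sets the share of cholic acid, had 290.1, 150.5 and 242 CPM at ZT6 and 317, 269 and 438 CPM at ZT18 (log2 fold change 0.58 ± 0.30, adjusted p = 0.215). Of 26 genes of cholesterol synthesis and uptake, 5 rose and none fell (1 without ZT18 c or ZT6 c), with a median of 0.15. The count of rises was 2 without ZT6 b and 3 without ZT6 a or ZT18 c. *Mvd*, an enzyme of the mevalonate steps, had 27.6, 12.7 and 33.7 CPM at ZT6 and 83.9, 52.3 and 77.6 CPM at ZT18 (log2 fold change 1.53 ± 0.33, adjusted p = 0.00475). *Lss*, which closes the sterol ring, had 41.4, 48.5 and 73.6 CPM at ZT6 and 86.4, 107 and 117 CPM at ZT18 (log2 fold change 0.92 ± 0.22, adjusted p = 0.00961).

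A few genes of fat synthesis and of the fed state rose strongly, while most members of their lists were not called. Of 20 lipogenic genes 2 rose and none fell (1 without ZT18 c), with a median of 0.30. *Thrsp*, which encodes the lipogenic factor SPOT14, had 147, 218 and 257 CPM at ZT6 and 1721, 1034 and 1669 CPM at ZT18 (log2 fold change 2.83 ± 0.54, adjusted p = 0.00177). *Fasn*, the fatty acid synthase gene, had 303, 695 and 733 CPM at ZT6 and 2022, 1133 and 2089.8 CPM at ZT18 (log2 fold change 1.60 ± 0.40, adjusted p = 0.012). ZT18 b was the lowest of the ZT18 libraries for both genes, and still above the highest ZT6 value. *Scd1*, the abundant stearoyl-CoA desaturase gene, had 5465, 9584 and 8505 CPM at ZT6 and 5836, 5835 and 13543 CPM at ZT18 (log2 fold change 0.10 ± 0.41, adjusted p = 0.907), and *Srebf1*, which encodes the factor SREBP1, had 197, 223 and 501 CPM at ZT6 and 567, 327 and 429 CPM at ZT18 (log2 fold change 0.52 ± 0.28, adjusted p = 0.234). Both of the latter had overlapping groups. Without ZT6 c, the highest ZT6 library for it, *Srebf1* was called higher (log2 fold change 1.07, adjusted p = 0.00431). In the knockouts 8 of the 20 genes were called higher at ZT18.

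*G0s2*, which encodes an inhibitor of the lipase ATGL, had 33.97, 27.8 and 21.6 CPM at ZT6 and 152, 137 and 269 CPM at ZT18 (log2 fold change 2.75 ± 0.42, adjusted p = 0.000335). *Pnpla2*, the ATGL gene itself, had 105, 109 and 95.7 CPM at ZT6 and 58.9, 57.9 and 61.3 CPM at ZT18 (log2 fold change -0.80 ± 0.09, adjusted p = 2.16e-05). An inhibitor and its target enzyme thus moved in opposite directions, each with separate groups. *Plin5*, which encodes a lipid droplet coat protein, had 44.01, 47.96 and 31.3 CPM at ZT6 and 69.7, 70.2 and 76.03 CPM at ZT18 (log2 fold change 0.81 ± 0.15, adjusted p = 0.00159). *Angptl8*, the gene of a secreted protein that rises with feeding and acts on lipoprotein lipase activity, had 79.4, 34.5 and 60.5 CPM at ZT6 and 302, 246 and 290.2 CPM at ZT18 (log2 fold change 2.26 ± 0.38, adjusted p = 0.000691), or 144 TPM at ZT6 and 688 TPM at ZT18.

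Glucose handling changed at single genes. Of 15 genes of glycolysis 2 rose and 1 fell (2 falls without ZT18 c), and of 12 of gluconeogenesis none rose and 2 fell. Of 14 genes of glycogen 1 rose and 4 fell (2 falls without ZT18 a, ZT18 b or ZT6 b). Over all tested genes 6.77% rose and 7.63% fell, and 1 fall among 15 or 1 rise among 14 lies near these shares. *Pfkfb1*, which encodes the liver form of the enzyme that makes and breaks fructose 2,6-bisphosphate, had 9.04, 20.4 and 15.04 CPM at ZT6 and 38.97, 50.8 and 38.2 CPM at ZT18 (log2 fold change 1.52 ± 0.27, adjusted p = 0.000938). *Ppp1r3b*, whose product targets a phosphatase to glycogen and favours glycogen synthesis, had 78.01, 61.6 and 145 CPM at ZT6 and 483, 502 and 550.0 CPM at ZT18 (log2 fold change 2.43 ± 0.34, adjusted p = 0.000175). All ZT18 libraries were above all ZT6 libraries for both genes. *Phka2*, which encodes the liver regulatory subunit of phosphorylase kinase and so serves glycogen breakdown, had 25.6, 26.4 and 27.4 CPM at ZT6 and 10.98, 13.2 and 13.4 CPM at ZT18 (log2 fold change -1.08 ± 0.11, adjusted p = 1.42e-05). The glucose transporter *Slc2a2* (GLUT2) had 334, 419.6 and 463 CPM at ZT6 and 262, 239.8 and 239.6 CPM at ZT18 (log2 fold change -0.71 ± 0.13, adjusted p = 0.00139). *Pck1*, the gene of the gluconeogenic enzyme PEPCK, had 2285, 2546 and 2318 CPM at ZT6 and 685, 809.8 and 615 CPM at ZT18 (log2 fold change -1.76 ± 0.25, adjusted p = 0.000205), or 1499 TPM at ZT6 and 441 TPM at ZT18. These falls were again free of overlap. *G6pc*, the last step of glucose release, had 262, 373 and 200.3 CPM at ZT6 and 141, 154 and 263 CPM at ZT18 (log2 fold change -0.58 ± 0.56, adjusted p = 0.547), with overlapping groups.

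**Figure D3:**
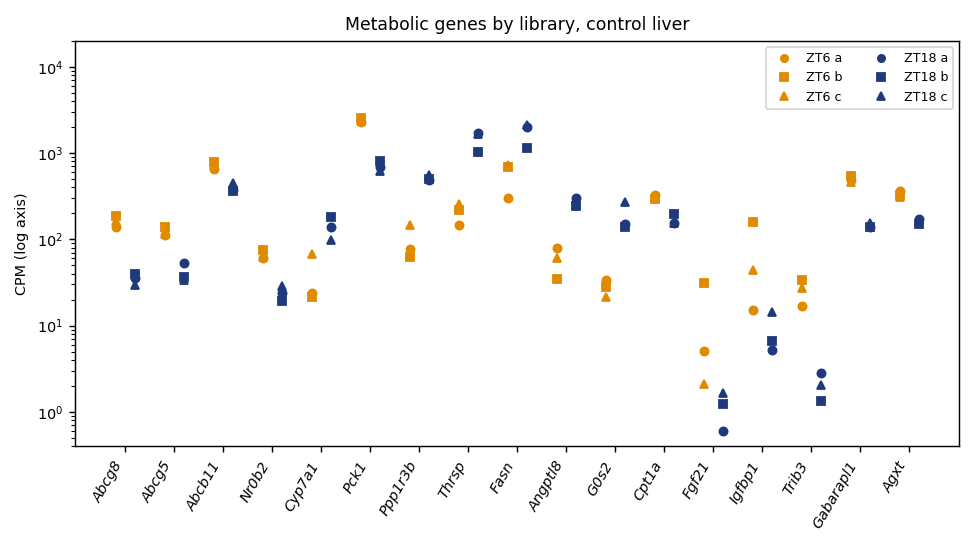
CPM (log axis) of 17 genes of metabolism and its control in each control library at ZT6 (orange) and ZT18 (blue), with a circle, square and triangle for libraries a, b and c. *Thrsp* and *Angptl8* are higher at ZT18 and *Pck1*, *Abcg8* and *Trib3* lower with no overlap, and for *Fgf21* and *Igfbp1* the square of ZT6 b stands above the other ZT6 libraries.

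Several genes of fasting and nutrient stress fell. *Trib3*, which encodes a pseudokinase that binds AKT, had 17.1, 33.8 and 27.6 CPM at ZT6 and 2.81, 1.36 and 2.04 CPM at ZT18 (log2 fold change -3.67 ± 0.28, adjusted p = 5.78e-07). *Sesn2*, which encodes a leucine sensor, had 9.897, 14.9 and 10.6 CPM at ZT6 and 5.86, 4.93 and 5.403 CPM at ZT18 (log2 fold change -1.13 ± 0.22, adjusted p = 0.00216). *Ddit4*, which encodes the mTORC1 inhibitor REDD1, rose instead, with 6.06, 6.08 and 5.58 CPM at ZT6 and 20.5, 19.8 and 30.1 CPM at ZT18 (log2 fold change 1.99 ± 0.40, adjusted p = 0.00265). The groups were separate in each case. Library ZT6 b was the highest ZT6 library for *Trib3*, *Sesn2*, *Igfbp1* and *Fgf21*. *Igfbp1*, which encodes an insulin-repressed binding protein, had 15, 160.0 and 44.5 CPM at ZT6 and 5.19, 6.56 and 14.5 CPM at ZT18 (log2 fold change -3.06 ± 0.76, adjusted p = 0.0118), and its adjusted p was 0.0586 without ZT18 a and 0.105 without ZT6 b. Without ZT6 b its log2 fold change was -1.77. *Fgf21*, the gene of a fasting hormone, had 5.14, 30.9 and 2.13 CPM at ZT6 and 0.596, 1.22 and 1.65 CPM at ZT18 (log2 fold change -3.45 ± 0.75, adjusted p = 0.00487), and its adjusted p was 0.0584 without ZT6 b, where the log2 fold change was -1.64. In the insulin and feeding list of 17 genes 2 rose and 6 fell, with 1 rise without ZT18 a, ZT18 b or ZT6 b.

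For fatty acid oxidation and ketogenesis 1 of 20 genes rose and 5 fell (2 without ZT6 b or ZT18 a). *Cpt1a*, the gate of mitochondrial fatty acid import, had 322, 289 and 299.5 CPM at ZT6 and 154, 195 and 156 CPM at ZT18 (log2 fold change -0.86 ± 0.12, adjusted p = 0.000217). *Bdh1*, which makes the ketone body 3-hydroxybutyrate, had 300.4, 299 and 251 CPM at ZT6 and 147, 149 and 156 CPM at ZT18 (log2 fold change -0.91 ± 0.11, adjusted p = 4.72e-05). *Acsl1*, which activates long-chain fatty acids, went up, with 863, 690.2 and 778 CPM at ZT6 and 1096, 1405 and 1168 CPM at ZT18 (log2 fold change 0.65 ± 0.12, adjusted p = 0.00135). The groups did not overlap in any of the 3. *Ppara*, which encodes the fasting-activated receptor PPARα, had 30.6, 32.5 and 46.8 CPM at ZT6 and 27.9, 31.8 and 19.7 CPM at ZT18 (log2 fold change -0.47 ± 0.23, adjusted p = 0.18), and of 18 genes listed as its fasting targets 3 rose and 1 fell (5 and 0 without ZT6 b, and 3 falls without ZT6 c).

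Amino acid, one-carbon and NAD genes showed few but clear changes, where 6.77% of all tested genes rose and 7.63% fell. Of 25 genes of amino acid catabolism 5 fell and none rose (1 without ZT18 b). *Agxt*, the glyoxylate-detoxifying aminotransferase gene, had 368, 325 and 312 CPM at ZT6 and 172, 152 and 165 CPM at ZT18 (log2 fold change -1.04 ± 0.13, adjusted p = 7.18e-05). *Cdo1*, which oxidises cysteine, had 1459.9, 1505 and 1640.4 CPM at ZT6 and 806, 751 and 910.0 CPM at ZT18 (log2 fold change -0.90 ± 0.12, adjusted p = 7.88e-05). *Tdo2*, which opens tryptophan breakdown, had 1538, 1649 and 1571 CPM at ZT6 and 1119, 1127 and 984 CPM at ZT18 (log2 fold change -0.56 ± 0.09, adjusted p = 0.000375). ZT6 was above ZT18 in every library for each. *Asl*, the argininosuccinate lyase of the urea cycle, had 385, 506 and 504 CPM at ZT6 and 1059, 793 and 1029.7 CPM at ZT18 (log2 fold change 1.05 ± 0.20, adjusted p = 0.00166). Its groups did not overlap, and 2 of 9 urea cycle genes rose. In the methionine and one-carbon list 3 of 14 rose and none fell (1 without ZT6 c). *Nmrk1*, which encodes a nicotinamide riboside kinase, had 22.3, 23.1 and 19.96 CPM at ZT6 and 42.1, 49.4 and 44.2 CPM at ZT18 (log2 fold change 1.05 ± 0.12, adjusted p = 3.04e-05). *Acmsd*, which turns tryptophan metabolites away from NAD, had 13.1, 20.4 and 10.7 CPM at ZT6 and 64.9, 40.3 and 46.7 CPM at ZT18 (log2 fold change 1.78 ± 0.33, adjusted p = 0.0015). Neither gene had overlapping groups, and of 17 genes of NAD synthesis and sirtuins 3 rose and 2 fell (1 without ZT18 a, ZT18 b, ZT18 c or ZT6 c).

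A part of the genes that build ribosomes rose, and a part of those of self-digestion fell. Of 40 ribosome biogenesis genes 13 rose and 1 fell (2 without ZT18 b), with a median of 0.29. The mean of the list's log2 CPM, centred per gene over the 6 libraries, was -0.11, -0.16 and -0.13 at ZT6 and 0.05, 0.30 and 0.05 at ZT18. ZT18 b stood highest there and also had the highest Kupffer cell marker level, and without it 11 genes rose. Over the 6 single leave-outs 9 to 12 rose, and 6 to 9 with a letter left out at every time. In the knockouts 4 of the 40 were called higher and 1 lower. *Rrp12* had 7.88, 7.81 and 7.45 CPM at ZT6 and 14.3, 17.3 and 13.1 CPM at ZT18 (log2 fold change 0.95 ± 0.14, adjusted p = 0.000309), and *Nop16* had 29.8, 25.7 and 27.1 CPM at ZT6 and 48.97, 44.4 and 47.6 CPM at ZT18 (log2 fold change 0.77 ± 0.11, adjusted p = 0.000168). The 1 fall was *Ubtf*, which encodes a factor of RNA polymerase I (log2 fold change -0.39 ± 0.08, adjusted p = 0.00286). By contrast, of 83 genes listed as cytosolic ribosomal proteins 1 was called, the *Rpl7*-like gene *Rpl7l1* (log2 fold change 0.41 ± 0.08, adjusted p = 0.00156). The median of that list was 0.02. In autophagy 7 of 25 genes fell and none rose. *Gabarapl1*, which encodes a protein conjugated to autophagosome membranes, had 489.7, 536 and 465 CPM at ZT6 and 138, 138 and 156 CPM at ZT18 (log2 fold change -1.79 ± 0.12, adjusted p = 1.7e-07), and *Ulk1*, the initiating kinase gene, had 76.6, 79.96 and 99.3 CPM at ZT6 and 39.7, 51.9 and 42.7 CPM at ZT18 (log2 fold change -0.93 ± 0.15, adjusted p = 0.000648). Each of these had separate groups. Among 38 proteasome genes 6 fell, of which 3 stayed called without ZT18 a, ZT18 b or ZT6 b, and none rose, with *Psmd3* at -0.38 ± 0.07 (adjusted p = 0.00177).

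Of 26 P450 and related genes 2 fell and none rose, a share near the 7.63% of all tested genes that fell. *Cyp3a25* had 1073, 1284 and 1084 CPM at ZT6 and 630.5, 431 and 582 CPM at ZT18 (log2 fold change -1.07 ± 0.18, adjusted p = 0.000691). *Cyp3a59* had 134, 254 and 92.5 CPM at ZT6 and 45.7, 30.5 and 29.1 CPM at ZT18 (log2 fold change -2.19 ± 0.33, adjusted p = 0.000303). These 2 cytochrome P450 genes are 97.0% identical over the aligned transcript, so reads may be split between them. *Cyp3a11*, an abundant member of that subfamily, had 5633, 9183 and 3831 CPM at ZT6 and 4330.4, 3797 and 5516 CPM at ZT18 (log2 fold change -0.45 ± 0.23, adjusted p = 0.223), and it was called lower without ZT6 c (-0.70, adjusted p = 0.0385). Of 26 conjugation genes 6 fell (3 without ZT18 b) and none rose (2 without ZT6 b, *Gsta3* and *Sult1a1*). *Gstm4*, a glutathione transferase gene, had 115, 185 and 96.8 CPM at ZT6 and 53.1, 52.9 and 73.9 CPM at ZT18 (log2 fold change -1.14 ± 0.19, adjusted p = 0.000614). *Gclc*, the rate-limiting enzyme of glutathione synthesis, had 414, 495 and 485 CPM at ZT6 and 284, 256 and 273 CPM at ZT18 (log2 fold change -0.78 ± 0.14, adjusted p = 0.00147). Both were lower in every ZT18 library.

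Hormone receptors and their partners changed in both directions. *Thra*, which encodes the other thyroid hormone receptor, had 32.1, 25.7 and 25.9 CPM at ZT6 and 11.4, 12.7 and 15.4 CPM at ZT18 (log2 fold change -1.08 ± 0.14, adjusted p = 0.000106), but it shares 263 exon bases on the opposite strand with *Nr1d1*, which fell much more, and reads without strand cannot be assigned there. *Thra* (chr11:98740638-98769006, plus strand) and *Nr1d1* (chr11:98767932-98775333, minus strand) overlap at their ends. *Hr*, a corepressor gene that thyroid hormone induces, had 0.753, 0.994 and 0.711 CPM at ZT6 and 3.51, 2.68 and 4.08 CPM at ZT18 (log2 fold change 2.06 ± 0.36, adjusted p = 0.00104). *Dio1*, the deiodinase gene used as a readout of thyroid hormone action, had 150.1, 71.01 and 81.01 CPM at ZT6 and 151, 112 and 75.8 CPM at ZT18 (log2 fold change 0.16 ± 0.36, adjusted p = 0.819), with overlapping groups. Of 13 genes of this axis 2 rose (1 without ZT18 a, ZT18 b, ZT6 a or ZT6 b) and 3 fell. The shares of all tested genes were 6.77% and 7.63%. *Ppard*, which encodes PPARδ, had 7.98, 7.96 and 9.67 CPM at ZT6 and 20.8, 21.5 and 48.6 CPM at ZT18 (log2 fold change 1.83 ± 0.35, adjusted p = 0.00184). *Esr1*, the estrogen receptor alpha gene, had 9.897, 16.3 and 10.5 CPM at ZT6 and 27.99, 28.1 and 25.7 CPM at ZT18 (log2 fold change 1.16 ± 0.18, adjusted p = 0.000461). The mineralocorticoid receptor gene *Nr3c2* had 17.4, 13.3 and 17.2 CPM at ZT6 and 8.98, 9.19 and 8.89 CPM at ZT18 (log2 fold change -0.82 ± 0.19, adjusted p = 0.00701). None of these 3 overlapped between the groups, *Ppard* was highest in ZT18 c, and of 18 nuclear receptor genes 3 rose and 4 fell (2 without ZT18 a, ZT18 c or ZT6 a).

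Among genes that respond to steroid and growth signals few were called, beside 6.77% of all tested genes that rose and 7.63% that fell. Of 12 glucocorticoid-responsive genes 2 rose and 2 fell (4 falls without ZT6 a, 1 without ZT18 a, ZT18 c or ZT6 c), with a median of -0.16. Of 12 genes of the growth hormone and IGF axis 2 rose (1 without ZT18 a, ZT18 c, ZT6 b or ZT6 c) and 1 fell. Of 18 immediate early genes 2 rose (4 without ZT6 b, 1 without ZT18 c, ZT6 a or ZT6 c) and 2 fell (1 without ZT6 b or any of the ZT18 libraries). *Cdkn1a*, the cell cycle inhibitor p21, had 1.58, 2.69 and 1.08 CPM at ZT6 and 8.03, 20.8 and 14.9 CPM at ZT18 (log2 fold change 3.04 ± 0.49, adjusted p = 0.000477). *Fkbp5*, which glucocorticoids induce, had 12.7, 16.5 and 19.4 CPM at ZT6 and 38.4, 69.3 and 34.3 CPM at ZT18 (log2 fold change 1.54 ± 0.30, adjusted p = 0.00217). *Stat5b*, which carries the growth hormone signal, had 69.96, 73.3 and 82.3 CPM at ZT6 and 43.6, 44.8 and 48.3 CPM at ZT18 (log2 fold change -0.72 ± 0.11, adjusted p = 0.000275). *Cdkn1a* and *Fkbp5* were highest in ZT18 b, and all 3 genes were separate between the times. *Junb*, an immediate early gene, had 27.8, 36.3 and 32.6 CPM at ZT6 and 13.5, 14.7 and 9.13 CPM at ZT18 (log2 fold change -1.37 ± 0.16, adjusted p = 2.87e-05), and *Klf11* had 11.03, 10.9 and 14.3 CPM at ZT6 and 4.42, 4.58 and 5.01 CPM at ZT18 (log2 fold change -1.37 ± 0.24, adjusted p = 0.000869). *Cirbp*, whose transcript is known to rise with cooling, had 40.2, 44.4 and 48.4 CPM at ZT6 and 19.1, 19.5 and 22.9 CPM at ZT18 (log2 fold change -1.11 ± 0.21, adjusted p = 0.00142), while *Rbm3*, a related cold-inducible gene, had 40.1, 31.8 and 38.9 CPM at ZT6 and 36.2, 37.9 and 28.4 CPM at ZT18 (log2 fold change -0.12 ± 0.15, adjusted p = 0.672). In *Cirbp* every ZT18 library was lower than every ZT6 library, and in *Rbm3* the groups overlapped.

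Iron, Wnt and replication genes added smaller sets, beside 6.77% of all tested genes that rose and 7.63% that fell. Among 16 iron genes 3 rose (1 without ZT18 a) and 1 fell (none without ZT18 a, ZT18 c or ZT6 b). *Tfrc*, the transferrin receptor gene, had 14.6, 12.3 and 16.5 CPM at ZT6 and 42.97, 31.6 and 25.5 CPM at ZT18 (log2 fold change 1.20 ± 0.23, adjusted p = 0.00167). *Hamp*, which encodes the iron hormone hepcidin, had 496, 609 and 965 CPM at ZT6 and 1968, 1224 and 1169.8 CPM at ZT18 (log2 fold change 1.07 ± 0.25, adjusted p = 0.00817) and 3648 TPM at ZT6 and 7509.8 TPM at ZT18, and its adjusted p was 0.0564 without ZT18 a. *Znrf3* and *Rnf43* encode membrane ubiquitin ligases that Wnt signals induce around the central vein. *Znrf3* had 11.6, 15.8 and 14.4 CPM at ZT6 and 7.02, 8.27 and 5.01 CPM at ZT18 (log2 fold change -1.04 ± 0.18, adjusted p = 0.00106) and *Rnf43* had 25.3, 33.1 and 43.5 CPM at ZT6 and 21.4, 15.5 and 17.9 CPM at ZT18 (log2 fold change -0.90 ± 0.17, adjusted p = 0.00166). Of 11 pericentral genes none rose (1 without ZT6 a) and 4 fell (2 without ZT18 c or ZT6 c), whereas *Glul*, the classic pericentral gene, differed by 0.06 ± 0.12 (adjusted p = 0.796). In the cell cycle list 5 of 20 rose, all of them genes of the MCM helicase that licenses DNA replication (3 without ZT18 b). *Mcm2* had 2.23, 3.36 and 2.82 CPM at ZT6 and 5.96, 9.98 and 6.46 CPM at ZT18 (log2 fold change 1.41 ± 0.22, adjusted p = 0.000428), highest in ZT18 b, and *Mki67*, a marker of dividing cells, had 1.37, 0.702 and 0.527 CPM at ZT6 and 0.842, 3.14 and 1.42 CPM at ZT18 (log2 fold change 1.09 ± 0.46, adjusted p = 0.125).

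Few markers of other cell types were called. None of 9 Kupffer cell genes was called in the reported fit (*Adgre1* rose without ZT18 a or ZT18 c). The other settings given below called 0 to 6 of them higher, and leaving out a letter at every time 0 to 4. All 9 had a positive log2 fold change, with a list median of 0.71. Their summed level was 299, 254 and 252 CPM at ZT6 and 297, 683 and 322 CPM at ZT18, with ZT18 b apart. Library ZT18 b also had the highest value of *Mcm2*, *Cdkn1a* and *Fkbp5* and of the ribosome biogenesis list, and the part of the Kupffer cell level in these was not tested. Of the markers of endothelium 1 of 6 rose, *Clec4g* (log2 fold change 0.51 ± 0.13, adjusted p = 0.0167), with an adjusted p of 0.0654 without ZT18 b and 0.0739 without ZT6 a. Of those of cholangiocytes 2 of 5 rose, *Sox9* (log2 fold change 1.03 ± 0.26, adjusted p = 0.0114) and *Krt19* (log2 fold change 0.87 ± 0.25, adjusted p = 0.027). The adjusted p of *Sox9* was 0.0572 without ZT6 b, and that of *Krt19* was 0.138 without ZT18 c, 0.094 without ZT6 a and 0.0571 without ZT6 b. None of 5 stellate, 5 T cell, 5 B cell, 2 neutrophil, 5 erythroid, 3 platelet and 1 acinar marker genes was called, and no marker of adipocytes or skeletal muscle reached the count minimum. No gene of 20 acute phase, 21 interferon and antigen presentation or 21 major urinary protein genes was called. Leaving out a library gave calls in each of these lists. The 3 fibrinogen genes *Fga*, *Fgb* and *Fgg* of the acute phase list fell without ZT6 b, and *Fga* also without ZT18 b. *Gbp2* of the interferon list rose without ZT18 a or ZT18 b, and *Mup4* rose without ZT6 a.

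**Figure D4:**
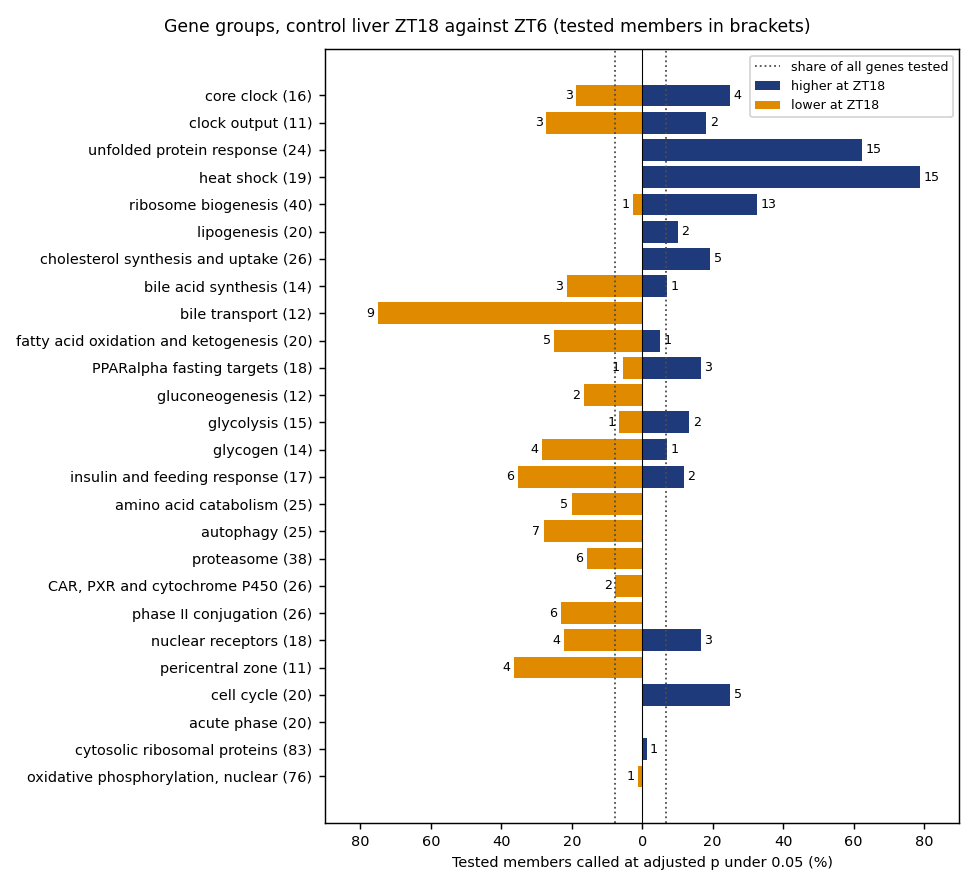
Percentage of the tested members of 26 gene lists called higher (blue, right) or lower (orange, left) at ZT18, with the number called at each bar, the number tested in brackets and dotted lines at the shares of all tested genes (6.77% and 7.63%). The heat shock and unfolded protein response lists stand out with 15 rises each and no fall, and bile transport with 9 falls and no rise.

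Outside these functions, large separated changes were called in other genes. *Rgs16*, which encodes a regulator of G protein signals that fasting induces in liver, had 29.5, 155 and 78.9 CPM at ZT6 and 2.42, 1.38 and 2.37 CPM at ZT18 (log2 fold change -5.43 ± 0.76, adjusted p = 0.000165). *Clec2h*, a lectin gene, had 70.2, 50.9 and 31.3 CPM at ZT6 and 10.7, 9.98 and 6.79 CPM at ZT18 (log2 fold change -2.47 ± 0.37, adjusted p = 0.000283). *Erbb4*, which encodes a neuregulin receptor, had 2.53, 1.58 and 3.898 CPM at ZT6 and 0.316, 0.298 and 0.626 CPM at ZT18 (log2 fold change -2.69 ± 0.43, adjusted p = 0.000488). ZT6 b was the highest ZT6 library for *Rgs16* but not for the others, and without it the log2 fold change of *Rgs16* was -4.74. *Nat8f5*, an N-acetyltransferase gene, had 6.92, 12.2 and 8.22 CPM at ZT6 and 64.9, 51.9 and 58.6 CPM at ZT18 (log2 fold change 2.68 ± 0.27, adjusted p = 1.02e-05), and it shares 135 exon bases on the same strand with *Nat8f6*, which had 0.719, 0.322 and 0.632 CPM at ZT6 and 9.68, 5.42 and 5.63 CPM at ZT18 (log2 fold change 3.63 ± 0.34, adjusted p = 3.97e-06). *Nat8f6* is 98.5% identical to *Nat8f3* and 98.3% to *Nat8f7* over the aligned transcript, so its reads may be split. In *Nat8f5* and *Nat8f6*, all ZT18 libraries were above all ZT6 libraries. *Lingo4* had 0.753, 1.199 and 0.948 CPM at ZT6 and 8.38, 5.34 and 8.24 CPM at ZT18 (log2 fold change 2.91 ± 0.36, adjusted p = 6.26e-05). *Tnnc1*, a troponin gene, had 0.753, 1.23 and 0.658 CPM at ZT6 and 9.79, 4.85 and 4.41 CPM at ZT18 (log2 fold change 2.84 ± 0.37, adjusted p = 9.49e-05). *C4a*, a complement component gene, rose (log2 fold change 2.82 ± 0.58, adjusted p = 0.00342) but is 96.0% identical to *C4b* over the aligned transcript, and without ZT6 a its log2 fold change was 3.46. Of 44 mitochondrial carrier genes of the Slc25 family 2 rose and 5 fell (3 without ZT6 b), against 6.77% and 7.63% of all genes. *Slc25a47*, a carrier gene expressed mainly in liver, had 608, 814 and 494 CPM at ZT6 and 279.7, 148 and 233 CPM at ZT18 (log2 fold change -1.54 ± 0.32, adjusted p = 0.00322). Apart from *Nat8f5*, *Clec2h*, *Rgs16*, *C4a* and *Slc25a47*, these genes stayed below 10 CPM in every library.

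The same contrast in the knockouts called 888 genes higher (4.93%) and 1078 lower (5.99%), but the difference between the genotypes was called for 0 of 17994 genes by edgeR and for 0 by DESeq2. Without adjustment, 811 genes passed p under 0.05 for this difference by edgeR and 816 by DESeq2. Of the 1218 genes that rose in the controls, 1183 (97.1%) had the same sign in the knockouts and 530 (43.5%) were called the same way. Of the 1373 that fell, 1350 (98.3%) had the same sign and 714 (52.0%) were called. None was called in the opposite direction. The share with the same sign over all tested genes is not given here, so these shares lack a background. The genes were chosen for their change in the controls, so the smaller knockout medians of 1.02 and -1.01 beside the control medians of 1.47 and -1.46, over genes with at least 2-fold change, are a description.

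Several control changes were not called in the knockouts, with no called difference between them. *Pck1* had 2158, 1047 and 2394 CPM at ZT6 and 846, 1054 and 1442 CPM at ZT18 in the knockouts (log2 fold change -0.75, adjusted p = 0.401, difference 1.02 ± 0.61, adjusted p = 0.999, unadjusted p = 0.106). *Angptl8* had 48.6, 149 and 264 CPM at ZT6 and 383, 102 and 163 CPM at ZT18 (log2 fold change 0.49, adjusted p = 0.674, difference -1.77 ± 0.76, adjusted p = 0.999, unadjusted p = 0.0262). The knockout libraries of these 2 genes overlapped between the times. *Fbxo32*, which encodes a ubiquitin ligase of muscle atrophy, had 3.87, 4.74 and 5.45 CPM at ZT6 and 0.912, 1.19 and 0.758 CPM at ZT18 in the controls (log2 fold change -2.29 ± 0.22, adjusted p = 6.41e-06) and 3.38, 2.63 and 3.35 CPM at ZT6 and 1.06, 2.09 and 3.56 CPM at ZT18 in the knockouts (difference 1.81 ± 0.40, adjusted p = 0.76, unadjusted p = 9.01e-05). For *Igfbp1* the difference was 3.74 ± 1.07, adjusted p = 0.999, unadjusted p = 0.0015, and for *Cyp7a1* it was -1.06 ± 0.63, adjusted p = 0.999, unadjusted p = 0.105.

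**Figure D5:**
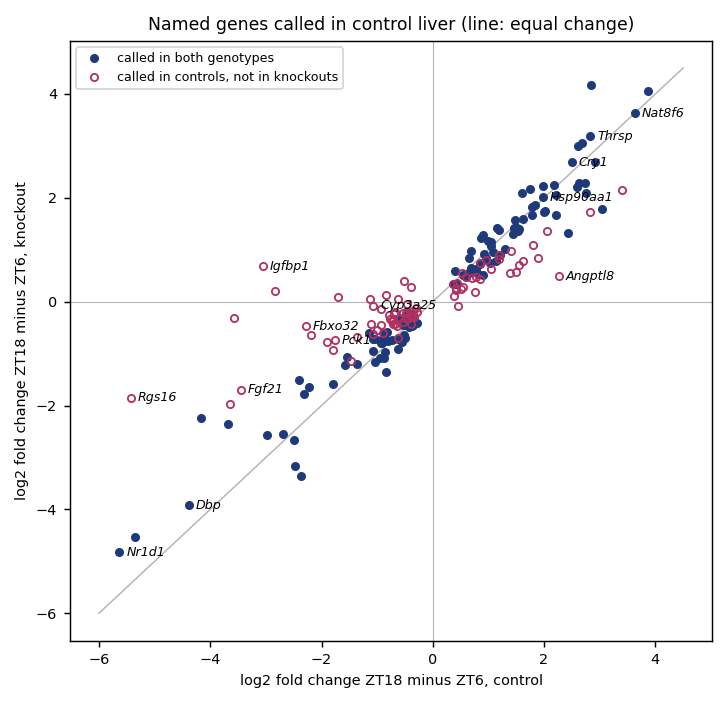
Log2 fold change ZT18 over ZT6 of the called named genes in control liver (x axis) and in knockout liver (y axis), with a line of equal change, filled points for genes called in both and open points for those called in controls alone. Of the 200 genes, 118 were also called in the knockouts and 9 had the opposite sign there.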

How the data were processed

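RNA of 36 livers was sequenced from poly-A selected, non-directional paired-end libraries. The authors deposited one table of raw read counts per gene, with gene lengths and positions, and per the labels used HISAT2, featureCounts and the build GRCm38 (mm10). Versions, the annotation release and the strand setting of counting are not given in the sources used here, and 0 sample columns were left unused. Replicates were not pooled.

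Here, genes with at least 100 counts over 36 libraries were kept, TMM factors were computed, and the 18 control libraries were fitted in 6 time groups with edgeR 4.0.16 (R 4.3.3, limma 3.58.1) quasi-likelihood tests and Benjamini-Hochberg adjustment at 0.05. Knockouts were fitted alike, and the genotype difference in one fit of all 36. Fits were tested on simulated data. CPM are TMM-scaled, and TPM use the file's lengths. Exon overlaps and BLAST 2.17.0 identities of at least 95% over 300 bases flagged uncertain genes. Promoters came from RefSeq.

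Named genes were all clock members, key and up to 4 most changed called members per list and direction, the 15 largest separated changes with a mean of 50 counts, the 8 largest abundance changes each way, the 10 smallest p-values for the genotype difference, and *Thrb*. Genes given outside this rule, such as *Atf6*, *Syvn1* or *Hspe1*, are list members named after their values were seen. The comparison, members and lists were chosen with earlier results of these data known. Alternatives were DESeq2 1.42.0, RLE scaling, other count filters, a robust fit, other sets of libraries, a replicate block and leaving out libraries. Counts of 29063273 to 37962314 per library limit precision less than the number of mice does. Some genes are not reported here.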

Additional observations from a re-analysis of the deposited data

How the results depend on the processing

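The counts of called genes depended on the libraries that entered the fit and also on the tool. Against 1218 higher and 1373 lower genes, DESeq2 called 1506 and 1644, RLE scaling 1210 and 1377, no count filter 1272 and 1215 of 29249 genes, edgeR's expression filter 1356 and 1372 of 16084, all 36 libraries in one fit 1386 and 1607, and the robust fit 1205 and 1372. The 6 libraries alone called 659 and 766. Leaving out libraries, one at a time or one letter at every time, gave 555 to 1052 higher and 591 to 1259 lower genes, 242 to 404 and 153 to 271 with at least a 2-fold change, and 0 to 1 genes with a genotype difference. The share of higher genes among those called was 47.0% and ranged from 43.7 to 51.2%, and the median log2 fold change of all genes from 0.00 to 0.03.

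The letters a, b and c do not mark a shared litter or day in the labels. Deviations of same-letter control libraries at the 2 times correlated at 0.188, -0.003 and -0.098, and the letters were not taken as pairs. This compares times within the controls and does not read whether same-letter mice of the 2 genotypes were alike, which was not tested. With the letter as a replicate block 1310 genes rose and 1498 fell, 392 and 230 of them at least 2-fold, and 0 genes differed between the genotypes.

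Of the 200 called named genes, 126 kept their call in all 8 other settings and all 6 single leave-outs, 141 in the 8 settings and 134 in the 6 leave-outs. *Npas2*, not called, changed sign and was called without ZT18 c (-3.16, adjusted p = 0.0283 by edgeR), and its log2 fold change ranged from -3.58 without letter c to 1.98 without letter b at every time. Leaving out knockout libraries was added after seeing the data, and without the knockout library ZT18 a the difference of *Fbxo32* was called (2.15 ± 0.35, adjusted p = 0.0193 by edgeR). The cause of these changes was not tested. Groups of 3 cannot show small changes of genes with few counts.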

Other observations

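Noncoding genes were also called in the contrast. Of 690 long intergenic noncoding RNA genes tested, 32 were higher and 40 lower at ZT18, against 1100 and 1274 of 14193 protein-coding genes. Of 720 antisense genes 22 were higher and 19 lower, and of 1035 processed pseudogenes 19 and 17. The noncoding transcript *Gm36041* had 10.9, 7.98 and 10.3 CPM at ZT6 and 1.33, 1.38 and 2.47 CPM at ZT18 (log2 fold change -2.49 ± 0.27, adjusted p = 1.65e-05 by edgeR), and *E030018B13Rik* had 0.719, 0 and 0.316 CPM at ZT6 and 6.63, 5.94 and 2.17 CPM at ZT18 (3.87 ± 0.74, adjusted p = 0.00182). Neither gene had overlapping groups. The log2 fold change of *E030018B13Rik* was 4.87 without ZT6 a and 3.27 without ZT6 b. At other pairs of control times 12 h apart, 2049 genes were called between ZT14 and ZT2 and 2349 between ZT22 and ZT10, beside 2591 between ZT18 and ZT6.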
